A study of Mus musculus with 2 samples.

Results

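The nuclear-encoded genes of oxidative phosphorylation were taken by gene symbol (Nduf, Sdh, Uqcr, Cox4 to Cox8 and Atp5 genes, with Cyc1 and Cycs) and comprised 87 of 21896 genes measured in the E13.5 mouse cortex. They were 37 genes of complex I, 4 of complex II, 9 of complex III, 1 gene for cytochrome c, 19 of complex IV and 17 of complex V. Of the 87, 82 reached 1 FPKM (fragment counts normalised for transcript length and library size) in at least 1 library and were compared. The symbols also caught 4 genes that do not encode subunits, namely Cox4nb, a subunit of an endoplasmic reticulum membrane complex, Atp5sl, an assembly factor of complex I, its relative Atp5s, and Cox7a2l, a factor that joins complexes III and IV into supercomplexes. Ndufab1, the mitochondrial acyl carrier protein of complex I, was not caught by the symbols and was at 40.2 FPKM in Rcor2fl/fl and 41.7 FPKM in Rcor2cko.

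Oxidative phosphorylation couples electron transport along complexes I to IV of the inner mitochondrial membrane to ATP synthesis by complex V. Complex I takes electrons from NADH and complex II from succinate, complex III passes them to cytochrome c, and complex IV reduces oxygen. All subunits of complex II and most subunits of the other complexes are encoded in the nucleus, and the mitochondrial genome adds a few core subunits, which were not analysed here. Neural progenitors of the embryonic cortex draw much of their energy from glycolysis, and reliance on oxidative phosphorylation grows as neurons are born.

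The ventricular and subventricular zones (VZ–SVZ) were dissected from the cortex, and their RNA was sequenced in 1 Rcor2fl/fl library and 1 Rcor2cko library from embryos of strain C57/BL6 at E13.5. Both genotypes came from crosses of Rcor2fl/+NesCre mice. Rcor2cko embryos carry Nestin-driven Cre, which acts in the neural lineage and removes the first exons of Rcor2, which encodes a partner of the demethylase LSD1, and Rcor2fl/fl embryos carry the floxed alleles. Whether 1 or several embryos went into a library is not given in the sources used here. With 1 library per genotype there was no replicate check and no test, so each difference is one between these 2 libraries.

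The FPKM steps of low genes gave scaling totals of 18841684 fragments for the Rcor2fl/fl library and 25479853 for the Rcor2cko library. Rcor2, counted over the whole gene, was at 90.6 FPKM in Rcor2fl/fl and 55.7 FPKM in Rcor2cko. Xist, the RNA of the inactive X chromosome, was at 177 and 0.109 FPKM and the Y-linked Eif2s3y at 0 and 19.8 FPKM, so that sex and genotype cannot be told apart. Of the labelled cell types, the 8 dorsal progenitor markers summed to 912 and 1042 FPKM (2 higher and 6 lower in the Rcor2cko library) and the 5 neuronal markers measured to 1364 and 1324 FPKM (3 higher and 2 lower), and none of these was at 0. Fabp7 gave 372 and 539 FPKM of the dorsal progenitor sum, Sox2 was the other marker higher, and the remaining 6 were lower. The 7 ventral telencephalon markers summed to 17.2 FPKM in the Rcor2fl/fl library, with Isl1 at 0, and 54.9 FPKM in the Rcor2cko library, and all 7 were higher there. The 6 choroid plexus markers, all higher in the Rcor2cko library, summed to 0.796 and 62.3 FPKM, of which Ttr gave 0 and 57.8 FPKM and Kl 0 and 0.00798 FPKM. The 6 microglial markers (10.7 and 17.9 FPKM) and the 7 endothelial markers (31.0 and 33.4 FPKM) were all higher in the Rcor2cko library, and 6 of 8 erythroid markers were lower (344 and 255 FPKM). The 6 cardiac and skeletal muscle markers summed to 0.502 and 0.464 FPKM, with Tnnt2 at 0 in both libraries. The part of these other cell types in the differences given here was not tested, and in dissected tissue fewer cells of a type and less RNA per cell cannot be told apart.

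The oxidative phosphorylation genes were abundant and were at nearly the same level in both libraries. Their median was 68.5 FPKM in Rcor2fl/fl and 65.5 FPKM in Rcor2cko, and the median member ranked at percentile 96.8 of all genes in the Rcor2fl/fl library. The summed FPKM of all 87 was 7474 and 7335 FPKM, or 2.40% and 2.39% of the FPKM in the library. In each library 24 members exceeded 100 FPKM. The 5 highest in the Rcor2fl/fl library were Atp5b, the catalytic beta subunit of ATP synthase, at 366 and 337 FPKM, Atp5k, a membrane subunit of the same enzyme, at 269 and 249 FPKM, the complex IV subunits Cox4i1 at 256 and 225 FPKM and Cox6b1 at 232 and 215 FPKM, and Uqcrh, the hinge protein of complex III, at 208 and 210 FPKM. At the other end, Cox4i2, Cox6a2, Cox7b2, Cox8b and Cox8c were under 1 FPKM in both libraries.

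**Figure D1:**
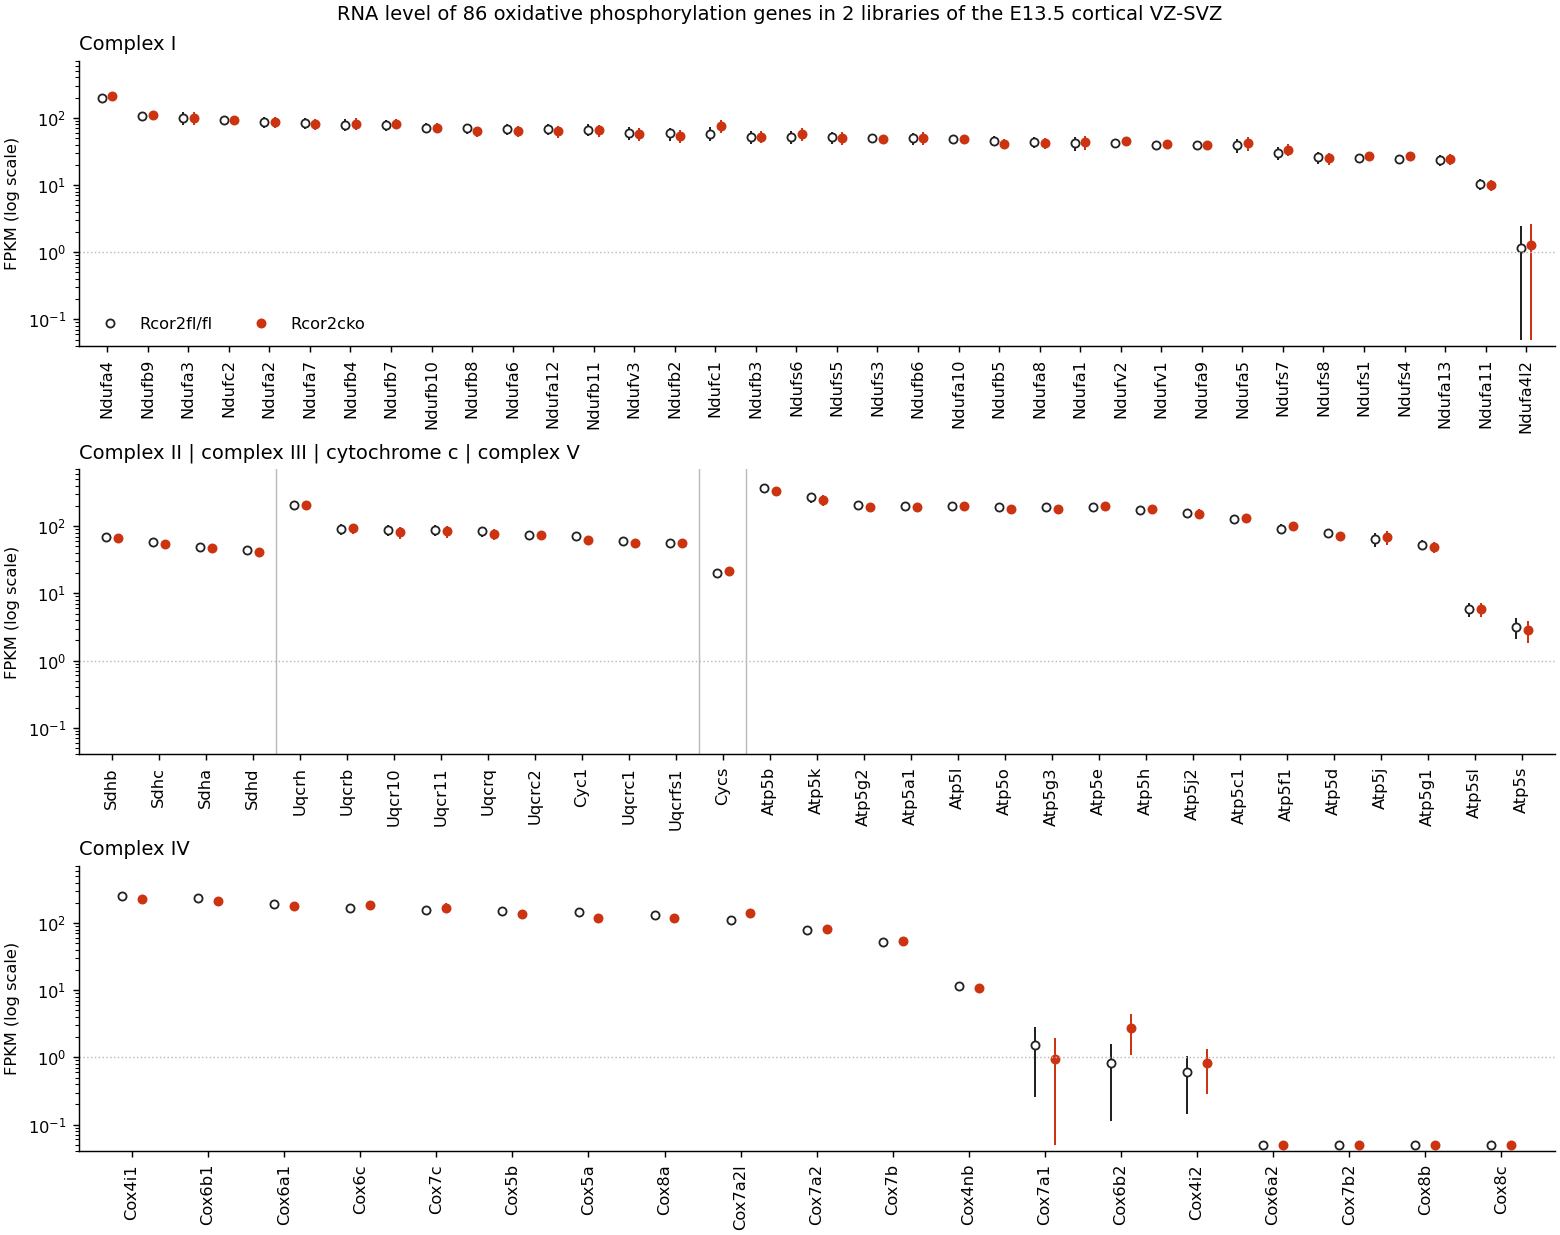
RNA level of 86 of the 87 genes on a log scale (FPKM), by complex, in the Rcor2fl/fl library (open black circles) and the Rcor2cko library (filled red circles), with the 95% FPKM intervals of the deposited values as bars and genes listed at 0 on the lower edge. Where a gene had several transcript rows, the Rcor2fl/fl bar combines their intervals. Most pairs of circles lie side by side between 10 and 366 FPKM, and the members under the dotted line at 1 FPKM belong to complex IV.

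The difference of a gene was expressed as log2 of Rcor2cko over Rcor2fl/fl after adding 0.1 to each FPKM, which understates the difference of low genes. Over the 82 members the median log2 difference was -0.03, against -0.03 over all 11777 genes that reached 1 FPKM in either library. On this scale 1 member, Cox6b2, was higher in Rcor2cko by more than 1.5-fold, as were 3.79% of all genes, and 1 member, Cox7a1, was lower by more than 1.5-fold, as were 1.76% of all genes. Both were low in expression, at 2.77 FPKM or less. The members lower in the Rcor2cko library by any amount numbered 45 of 82 (54.9%), against 57.6% of all genes. Scaling decided the sign of this small shift: the members' median was 0.01 after median scaling of the libraries, 0.00 after upper-quartile scaling and 0.01 after quantile normalisation, and 38, 41 and 37 members were then lower.

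The spread of the members was narrower than that of all genes, though not than that of several lists described below. Of the 77 members at a mean of at least 10 FPKM over the libraries, none passed 1.5-fold, where 42 of all 6073 genes at this level were higher and 29 lower by more than that. Differences of less than 1.1-fold were found for 64 members (83.1%), against 66.0% of all genes at this level, and of less than 1.2-fold for 96.1%, against 90.5%. The interquartile range of their log2 differences was 0.154, against 0.180 for all genes at this level, and the differences ran from -0.27 for Cox5a to 0.39 for Ndufc1. Smaller ranges at this level were those of cytosolic ribosomal proteins (0.114), proteasome subunits (0.134) and the TCA cycle (0.111). So were those of glycolysis (0.0689) and of the regulators (0.152). Larger ranges were those of mitochondrial ribosomal proteins (0.196) and assembly factors (0.200). The members' median level in Rcor2fl/fl, 71.6 FPKM, was above the 21.8 FPKM of all genes in this class. Counting error sets part of the members' spread. Whole fragments could be recovered for 69 of the 77, which had from 239 to 11610 fragments in the Rcor2fl/fl library and from 327 to 14413 in the Rcor2cko library. The half-width of their 95% counting interval (exact Clopper-Pearson, on the log2 ratio without added FPKM, covering counting error only) ran from 0.0354 to 0.246 with a median of 0.130. A difference smaller than a member's own half-width was not detectable at this depth. The interval lay above 0 for 5 of the 72 compared members with fragments (6.94%), against 13.7% of 9185 genes, and below 0 for 13 (18.1%), against 22.4%.

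**Figure D2:**
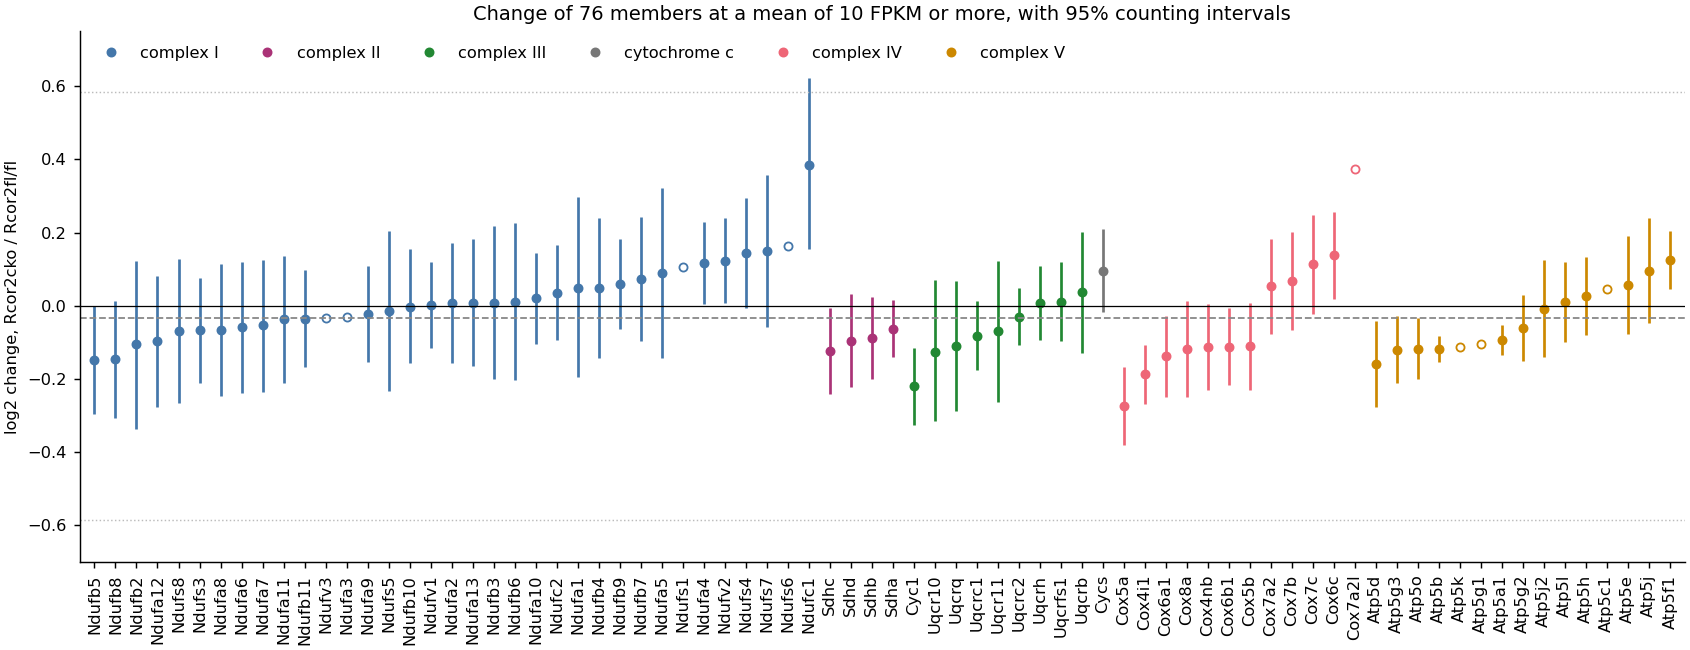
Log2 difference of Rcor2cko over Rcor2fl/fl for 76 of the 77 members at a mean of 10 FPKM or more, ordered within each complex, with 95% counting intervals (bars) where fragments could be recovered and open circles where they could not. All members drawn lie between the dotted lines at 1.5-fold, and the dashed line is the median of all genes at -0.03; Ndufc1 and Cox7a2l stand highest, at 0.39 and 0.37, and Cox5a lowest, at -0.27.

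The genes of complex I, the NADH dehydrogenase, were balanced between the libraries. Their summed level was 2147 FPKM in Rcor2fl/fl and 2177 FPKM in Rcor2cko, 1.40% more, and 20 of 37 were higher and 17 lower, with a median log2 difference of 0.01. The sum includes Ndufa4, at 196 and 213 FPKM, which is counted here by its symbol. Of all compared genes 57.6% were lower. In complexes I to V the share lower was 45.9%, 100%, 66.7%, 57.1% and 58.8%. The 7 core subunits, which carry the flavin, the iron-sulphur clusters and the quinone site, had a median of 0.00, and the 30 other genes 0.01. Among the core, Ndufv1, which binds NADH and the flavin, was at 40.1 and 40.2 FPKM. Ndufs7, part of the quinone-binding site, was at 30.3 and 33.6 FPKM (0.15, interval -0.06 to 0.36). The cluster-binding subunits Ndufs1 (25.2 and 27.2 FPKM), Ndufv2 (41.6 and 45.3 FPKM, with an interval above 0, from 0.0064 to 0.24), Ndufs8 (26.1 and 24.9 FPKM) and the core subunit Ndufs3 (50.2 and 48.0 FPKM) differed by less than 1.1-fold.

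Ndufc1, a small accessory subunit of the membrane arm, was the member of complex I furthest from parity. It was at 58.5 FPKM (242 fragments) in Rcor2fl/fl and 76.4 FPKM (415 fragments) in Rcor2cko, a log2 ratio of 0.39 with an interval from 0.16 to 0.62. Ndufc1 lies on the minus strand of chromosome 3 of mm9 from 51208599 to 51212910 and overlaps no other annotated gene. The search described below found no near copy of its coding sequence. Its 95% FPKM intervals in the files, 44.7 to 72.2 and 60.01 to 92.8 FPKM, overlapped, and 108 of the 6073 genes at this level (1.78%) were at least as far from 0 in the same direction. Ndufs6, an accessory subunit with a zinc site, was the next highest at 51.8 and 58.0 FPKM (0.16), and the lowest were the membrane-arm subunits Ndufb5 at 45.9 and 41.4 FPKM (-0.15, interval -0.29 to -0.0014) and Ndufb8 at 69.7 and 63.0 FPKM (-0.15, interval -0.31 to 0.01). No other member of complex I lay near Ndufc1.

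The 4 genes of complex II, the succinate dehydrogenase that also works in the TCA cycle, were all lower in the Rcor2cko library by a small amount. Sdha, the flavoprotein, was at 48.6 and 46.6 FPKM, with a log2 ratio of -0.06 and an interval from -0.14 to 0.01. Sdhb, the iron-sulphur subunit, was at 69.8 and 65.7 FPKM (-0.09, interval -0.20 to 0.03). The membrane anchors were at 58.2 and 53.4 FPKM for Sdhc (-0.12, interval -0.24 to -0.01) and 44.2 and 41.3 FPKM for Sdhd (-0.10, interval -0.22 to 0.03). Only the interval of Sdhc excluded 0. The sum of the 4 was 221 and 207 FPKM, a difference of -6.22%.

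Complex III, the cytochrome bc1 complex, had 3 genes higher and 6 lower, a median of -0.07 and a sum of 823 and 794 FPKM. Cyc1, the cytochrome c1 subunit that hands electrons to cytochrome c, stood apart from the other core subunit. It was at 71.7 FPKM (1350 fragments) in Rcor2fl/fl and 61.5 FPKM (1556 fragments) in Rcor2cko, a log2 ratio of -0.22 with an interval from -0.33 to -0.11. Cyc1 lies on the plus strand of chromosome 15 of mm9 from 76173953 to 76176364, and 8.78% of the genes at this level were at least as low. The Rieske iron-sulphur subunit Uqcrfs1 was at 56.7 and 57.2 FPKM (0.01). The highest ratios were those of Uqcrb, a small matrix-side subunit, at 90.3 and 92.7 FPKM (0.04), and Uqcrfs1, and after Cyc1 the lowest was that of the small subunit Uqcr10, at 88.2 and 80.9 FPKM (-0.12, interval -0.31 to 0.07). Cycs, the soluble carrier cytochrome c, was at 20.1 FPKM (1085 fragments) and 21.5 FPKM (1564 fragments), and its ratio of 0.10 had an interval from -0.02 to 0.21. Cytochrome c was thus lower in FPKM than every subunit of complex III in both libraries.

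Complex IV, the cytochrome c oxidase, held the widest spread. The summed level of its 19 genes was 1686 and 1642 FPKM, and the median log2 difference of the 14 compared was -0.11. That sum includes Cox7a2l, which is not a subunit. Of the 10 subunits that make up the usual form of the enzyme, 6 were lower and 4 higher, again with a median of -0.11. These 10 summed to 1561 and 1483 FPKM, a difference of -4.96%. Cox5a, a matrix-side subunit, was at 144 FPKM (1347 fragments) in Rcor2fl/fl and 119 FPKM (1486 fragments) in Rcor2cko, a log2 ratio of -0.27 with an interval from -0.38 to -0.17. Cox4i1, the ubiquitous form of a subunit that joins the core early in assembly, was at 256 FPKM (2340 fragments) and 225 FPKM (2740 fragments), with a ratio of -0.19 and an interval from -0.27 to -0.11. These were the largest negative differences of the complex above 10 FPKM, and 5.06% and 13.1% of the genes at this level were at least as low.

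Cox5a lies on the plus strand of chromosome 9 of mm9 from 57369039 to 57380231, where an annotated gene on the other strand, Gm17596, overlaps it, and its coding sequence has 1 near copy of 93.0% identity elsewhere in the genome. Cox4i1 lies on the plus strand of chromosome 8 from 123192190 to 123198109, where an annotated gene on the same strand, Gm20388, overlaps it, and has no near copy. The intermembrane-side subunit Cox6b1 (232 and 215 FPKM), Cox6a1 (194 and 177 FPKM), Cox5b (149 and 138 FPKM) and Cox8a (130 and 120 FPKM) also had lower FPKM in the Rcor2cko library, with log2 differences of -0.11, -0.14, -0.11 and -0.12. The intervals of Cox6b1 and Cox6a1 lay below 0, and those of Cox5b and Cox8a reached 0.01. Against them, Cox6c was at 167 FPKM (973 fragments) and 184 FPKM (1415 fragments), a ratio of 0.14 with an interval from 0.02 to 0.26. Cox7c (157 and 170 FPKM), Cox7a2 (79.0 and 82.0 FPKM) and Cox7b (52.2 and 54.6 FPKM) were higher by 0.11, 0.05 and 0.07, with intervals that included 0. Subunits of 1 enzyme thus differed in both directions.

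Cox7a2l was at 111 FPKM in Rcor2fl/fl and 143 FPKM in Rcor2cko, a log2 difference of 0.37. It was the only member whose 95% FPKM intervals, 96.5 to 124.7 and 125.2 to 161 FPKM, did not overlap, and 3.47% of the 11777 genes had intervals that did not. At its level 123 genes (2.03%) were at least as far from 0 in this direction. Cox7a2l lies on the minus strand of chromosome 17 of mm9 from 83901259 to 83913673, overlaps no other annotated gene and has no near copy. Of its 2 transcripts in the Rcor2fl/fl values, one held all of the FPKM and the other was listed at 0. Its Rcor2fl/fl interval was combined from these 2 transcript rows, whereas the Rcor2cko interval is that of a gene row. The 2 intervals therefore differ in kind.

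Complex V, the ATP synthase, gave the largest share of the members' FPKM, 34.5% and 34.0%, with a sum of 2577 and 2493 FPKM. Of its 17 genes 7 were higher and 10 lower, and the median log2 difference was -0.06, or 0 after quantile normalisation. Atp5b had 11610 fragments in Rcor2fl/fl and 14413 in Rcor2cko, the deepest of the members, and its log2 ratio of -0.12 had an interval from -0.15 to -0.08. Atp5a1, the alpha subunit of the catalytic head, was at 203 and 190 FPKM (-0.09, interval -0.13 to -0.05). The central stalk held values on both sides of 0, with Atp5c1, the gamma subunit of the rotor, at 128 and 132 FPKM (0.05) and Atp5e, its epsilon subunit, at 193 and 200.7 FPKM (0.06, interval -0.08 to 0.19). Its delta subunit Atp5d, given below, was at -0.16.

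The lowest ratio of complex V was that of Atp5d, the delta subunit of the rotor, at 79.7 and 71.3 FPKM (-0.16, interval -0.28 to -0.04), followed by Atp5s, which is no subunit, at 3.21 and 2.87 FPKM (-0.15). The highest was that of Atp5f1, subunit b of the peripheral stalk, at 92.2 FPKM (2193 fragments) and 100.6 FPKM (3217 fragments), with a ratio of 0.13 and an interval from 0.05 to 0.20. Atp5j, a coupling factor of the same stalk, was at 64.1 and 68.5 FPKM (0.10, interval -0.05 to 0.24), while Atp5o, which links the stalk to the head, was at 194 and 179 FPKM (-0.12, interval -0.20 to -0.03). The parts of the stalk thus did not share a direction.

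Several subunits have paralogous forms with restricted use, and in each set the same form prevailed in both libraries. Cox4i1 made up 99.8% and 99.6% of the FPKM of the Cox4 pair, and the lung and hypoxia form Cox4i2 was at 0.598 FPKM (6 fragments) and 0.821 FPKM (11 fragments), with an interval of the log2 ratio from -1.10 to 2.18. The muscle forms Cox6a2 and Cox8b, the testis form Cox7b2 and Cox8c were listed at 0 in both libraries, beside Cox6a1, Cox8a and Cox7b at 52.2 FPKM or more. For Cox7b2 a count of 0 allows up to 0.456 FPKM in Rcor2fl/fl and 0.344 FPKM in Rcor2cko, taken as 3 fragments, and for Cox6a2 up to 0.342 and 0.257 FPKM. Ndufa4 was at 196 and 213 FPKM (0.12, interval 0.01 to 0.23), and Ndufa4l2, its hypoxia-induced paralogue, at 1.17 FPKM (17 fragments) and 1.29 FPKM (25 fragments). Ndufa4 is counted here with complex I by its symbol, although its protein is now placed in complex IV.

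The members past 1.5-fold were both minor forms. Cox6b2, the testis form of Cox6b, was at 0.836 FPKM in Rcor2fl/fl and 2.77 FPKM in Rcor2cko, a log2 difference of 1.62. Its 95% FPKM intervals, 0.115 to 1.56 FPKM (combined from 2 transcript rows) and 1.08 to 4.45 FPKM, overlapped. Cox6b2 was 0.359% and 1.27% of the FPKM of the Cox6b pair, so Cox6b1 supplied nearly all of it in both libraries. Cox7a1, the heart and muscle form of Cox7a, was at 1.53 and 0.938 FPKM, a log2 difference of -0.65 with intervals of 0.261 to 2.80 and 0 to 1.95 FPKM. Its transcript of 366 nt is so short that 3 fragments amount to 0.926 FPKM in Rcor2fl/fl and 0.713 FPKM in Rcor2cko, so neither value stood far above this limit. A difference of Cox7a1 was not detectable at this depth. Cox6b2 lies on the minus strand of chromosome 7 of mm9 from 4703396 to 4704696 and Cox7a1 on the plus strand of chromosome 7 from 30969190 to 30971047.

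The c subunit of the ATP synthase ring is encoded by 3 genes whose mature proteins are the same. Atp5g2 gave 45.2% and 46.2% of their FPKM, Atp5g3 43.1% and 42.2%, and Atp5g1 11.7% and 11.6%. Atp5g2 was at 204 and 195 FPKM, Atp5g3 at 194 and 179 FPKM and Atp5g1 at 52.8 and 49.1 FPKM. The mix of the 3 genes therefore differed by at most 1 percentage point between the libraries. Atp5g1 and Atp5g2 each have 4 near copies of their coding sequence in the genome, and reads from them could be shared.

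Members on the X chromosome and members of each transcript length also lay near 0. The 3 X-linked members, Ndufa1 (42.4 and 43.9 FPKM), Ndufb11 (66.9 and 65.3 FPKM) and Cox7b, had log2 differences of 0.05, -0.04 and 0.07, although Xist differed between the libraries. The median of all 211 X-linked genes at a mean of 10 FPKM or more was 0.02. The members had short transcripts, with a median of 686.5 nt against 2909 nt for all compared genes, and FPKM of short transcripts depends on the effective length that the authors' software assigns. Among transcripts under 500 nt, 14 members had a median of -0.02 and the 66 other genes 0.04. From 500 to 1000 nt, 37 members had a median of -0.04 and 474 other genes -0.02. From 1000 to 2000 nt, 20 members had -0.01 and 1366 other genes -0.04, and at 2000 nt or more 6 members had -0.05 and 4090 other genes -0.04. No length class of the members was more than 0.1 from the other genes of its length on the log2 scale.

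**Figure D3:**
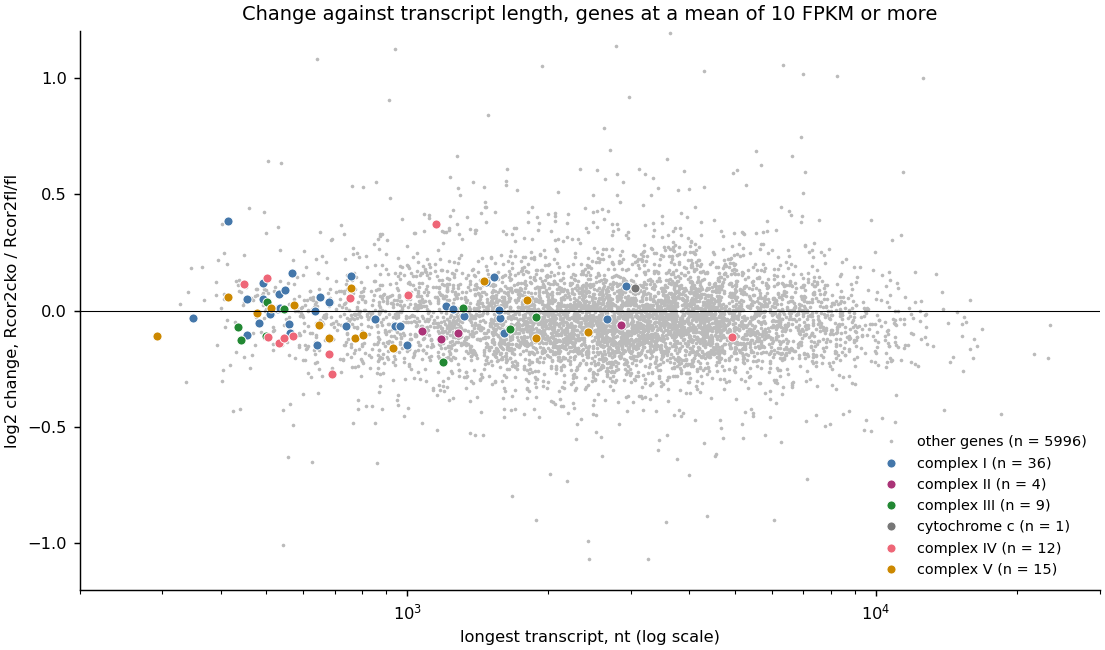
Log2 difference of Rcor2cko over Rcor2fl/fl against the length of the longest transcript (nt, log scale) for genes at a mean of 10 FPKM or more; coloured points are members by complex and grey points other genes, of which 17 lie outside the axes. The members crowd at short lengths and lie around 0, among the other genes, with Ndufc1 and Cox7a2l the highest members.

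Reads of some members could be shared with other loci. BLAST of the coding sequences against the genome found 89 near copies (at least 90% identity over at least 80% of the coding sequence) for 31 of the 87 members, with the most for Atp5l, a membrane subunit of the ATP synthase (14), Cycs (10) and Atp5h of the peripheral stalk (8). The 31 members with near copies had a median log2 difference of -0.04 and the 51 compared members without any -0.02, a split chosen after seeing the data. In the annotation 22 members overlap a gene on the other strand, such as Atp5j with Gabpa and Ndufb5 with Mrpl47. The kit marks strand, but how strand was used in mapping is not given in the sources used here.

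Other gene groups, most of which work beside the complexes, had medians from -0.12 to 0.03. The 29 measured assembly factors, which build the complexes but are not part of them, had a median of -0.03 (13 higher and 16 lower), and 1, the complex IV assembly factor Pet117, was past 1.5-fold at 1.495 and 4.07 FPKM. The 76 mitochondrial ribosomal proteins had a median of -0.02 (34 higher, 42 lower, none past 1.5-fold). The 16 genes of the TCA cycle and its pyruvate entry, which feed NADH to complex I, had a median of -0.09 (4 higher, 12 lower, none past 1.5-fold), and the 17 measured glycolysis genes a median of -0.12 (2 higher, 15 lower, none past 1.5-fold). Thus 88.2% of the glycolysis genes and 54.9% of the oxidative phosphorylation genes were lower in the Rcor2cko library, against 57.6% of all genes, and no test of that difference was possible. The 81 compared cytosolic ribosomal proteins, short and abundant like the members, had a median of 0.03 (49 higher, 32 lower, 1 past 1.5-fold upwards and 2 downwards), and the 35 compared proteasome subunits -0.07 (13 higher, 22 lower, none past 1.5-fold).

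**Figure D4:**
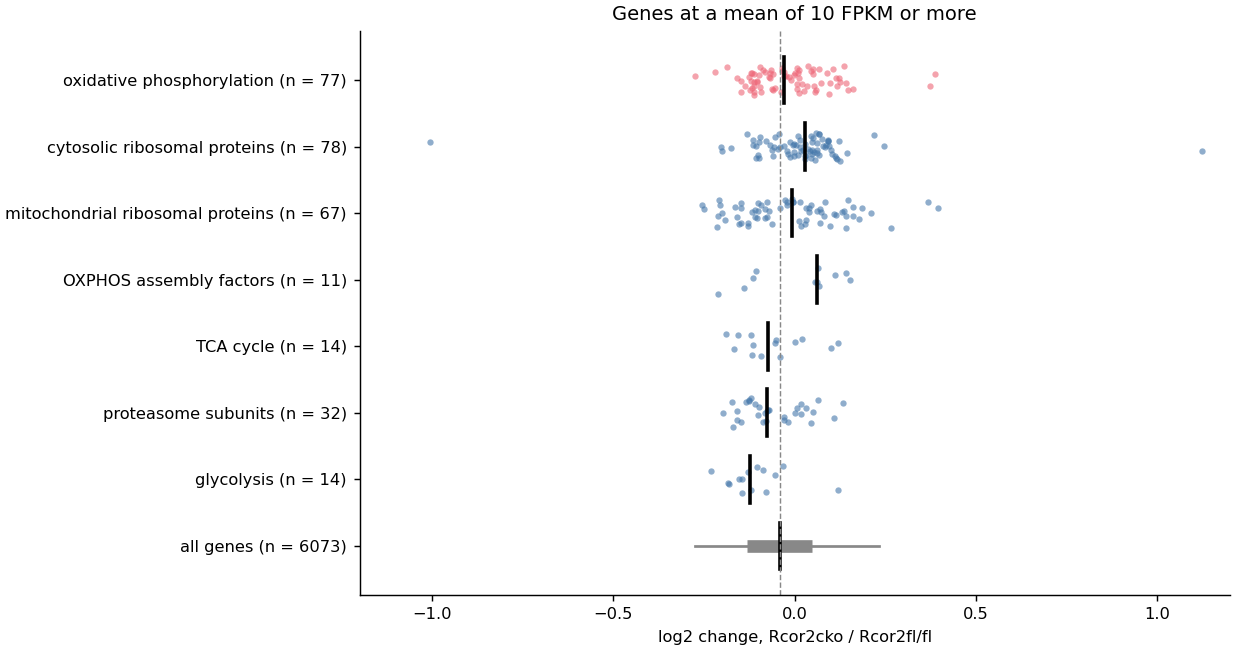
Log2 difference of Rcor2cko over Rcor2fl/fl for genes at a mean of 10 FPKM or more, with 1 point per gene in each list and the list's median as a black bar; for all genes the thick bar spans the middle of the distribution and the dashed line marks the median of -0.04. The oxidative phosphorylation genes gather around -0.03, and the glycolysis genes lie to their left around -0.12.

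Regulators of mitochondrial biogenesis were measured as well. This list also holds genes that act on mitochondrial DNA, such as Tfam, Polg and Peo1. Nrf1, which binds many promoters of respiratory chain genes, was at 14.7 and 13.6 FPKM (-0.12). Gabpa, the DNA-binding subunit of GABP, was at 15.1 and 14.9 FPKM (-0.02), and Yy1 at 24.2 and 26.0 FPKM (0.10). The co-activator Ppargc1a was at 1.58 and 1.93 FPKM (0.27), and Tfam, which packages and transcribes mitochondrial DNA, at 11.7 and 12.3 FPKM (0.07). The counting intervals lay below 0 for Polg, the mitochondrial DNA polymerase, at 13.6 and 11.99 FPKM (-0.18, interval -0.29 to -0.06), the mitochondrial helicase Peo1 at 10.6 and 8.99 FPKM (-0.24, interval -0.39 to -0.09) and the co-activator Pprc1 at 8.72 and 7.65 FPKM (-0.19, interval -0.32 to -0.05). Of the 15 genes of this list compared 8 were higher and 7 lower, with a median of 0.03. The nuclear receptor Esrrg, at 0.419 and 1.78 FPKM (1.85), was the 1 gene of this list past 1.5-fold.

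The promoters show sequence that the choice of genes did not use. RefSeq windows of 250 bases before and 50 after the annotated start (GRCm38.p6) were used for 70 of the 87 members. Among the members without one were Ndufb9, Ndufa2, Ndufs1, Ndufa4l2, Sdhc, Uqcrb, Uqcrq, Uqcrc2, Cyc1, Cox4i1, Cox6c, Cox4nb, Cox4i2, Cox6a2, Cox8c and Atp5a1. The core of the NRF1 site, GCGCATGC on either strand, was in 11 of the 70 windows (15.7%), against 2.80% of all 27025 promoters and 6.71% of 4443 promoters of genes at a mean of 10 FPKM or more. The letters AAGATGGC of the YY1 site were in 10 (14.3%), against 2.88% and 6.03%. The GABP (ETS) letters CCGGAAGT were in 5 (7.14%), against 4% and 10.6%, and the ERR half-site TCAAGGTCA in 2 (2.86%), against 0.407% and 0.248%. No motif contains another, but the NRF1 core can overlap its own reverse complement. Any of the 4 was in 27 of the members' windows (38.6%) against 9.55% of all promoters and 21.9% of those of genes at this level. Exact matches of this kind miss most variants of a site and are a description of the letters only.

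**Figure D5:**
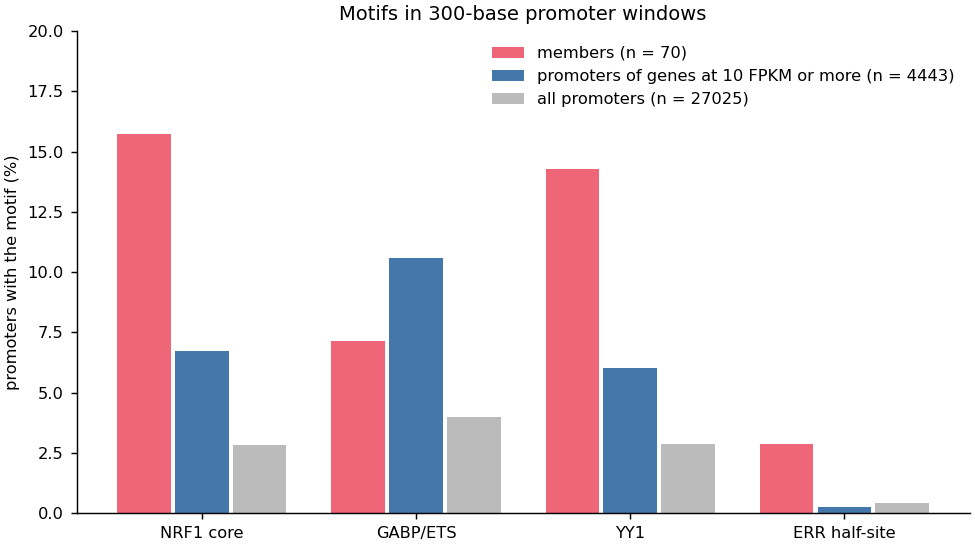
Share of 300-base promoter windows (%) that hold each of 4 motifs on either strand, for the 70 members with a window (red), 4443 promoters of genes at a mean of 10 FPKM or more (blue) and all 27025 promoters (grey). The red bars for the NRF1 core and YY1, at 15.7% and 14.3%, are taller than the blue bars at 6.71% and 6.03%, and for GABP the blue bar is the taller.

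The NRF1 core sits close to the start in several members, and 4 stretches from 110 bases before the start to the start are shown because they carry it in genes of 4 different steps of the chain. They are Ndufa6 of complex I (chr15:82354292-82354401, minus strand), Sdhb of complex II (chr4:140961161-140961270, plus strand), Cycs (chr6:50566570-50566679, minus strand) and Atp5g2 of complex V (chr15:102671048-102671157, minus strand), all in GRCm38.p6 and written along the gene's strand. Capitals mark the NRF1 core on either strand, and in Atp5g2 it is read on both strands at once.
Ndufa6: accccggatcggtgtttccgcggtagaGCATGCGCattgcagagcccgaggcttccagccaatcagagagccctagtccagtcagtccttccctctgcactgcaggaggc
Sdhb: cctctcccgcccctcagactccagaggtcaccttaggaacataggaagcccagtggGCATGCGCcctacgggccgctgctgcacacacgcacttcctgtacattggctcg
Cycs: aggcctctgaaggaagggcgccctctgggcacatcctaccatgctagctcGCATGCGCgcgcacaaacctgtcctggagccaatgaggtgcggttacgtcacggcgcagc
Atp5g2: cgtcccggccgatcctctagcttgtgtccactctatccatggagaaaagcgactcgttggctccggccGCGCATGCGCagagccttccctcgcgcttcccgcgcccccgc

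These 4 genes were at 67.3 and 64.6 FPKM (Ndufa6), 69.8 and 65.7 FPKM (Sdhb), 20.1 and 21.5 FPKM (Cycs) and 204 and 195 FPKM (Atp5g2). Their log2 differences of -0.06, -0.09, 0.10 and -0.06 lay on both sides of 0. Over the compared members with a promoter window, the 11 with the NRF1 core had a median of -0.07 and the 57 without it 0.00.

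The YY1 letters lay at 1 place in nearly all members that held them. In 9 of the 10 (90%) they were on the gene's own strand after the start, against 49.6% of the 268 promoters of genes at the same level that held them. In all 9 the ATG inside AAGATGGC began a coding sequence of the gene in GENCODE, judged by its first 9 letters, against 69.0% of 126 such promoters at the same level. The sites of Ndufc1 (chr3:51408915-51408944, minus strand), Ndufs6 (chr13:73328433-73328460, minus strand), Ndufs7 (chr10:80249462-80249491, plus strand) and Ndufa9 (chr6:126849097-126849126, minus strand) in GRCm38.p6 are shown for this shared place, with the YY1 letters in capitals and the start codon within them.
Ndufc1: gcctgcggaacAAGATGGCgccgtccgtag
Ndufs6: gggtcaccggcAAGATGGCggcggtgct
Ndufs7: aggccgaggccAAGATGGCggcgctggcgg
Ndufa9: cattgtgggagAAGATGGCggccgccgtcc

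Of the 10 members with the YY1 letters 7 belong to complex I, namely these 4 with Ndufa3, Ndufb8 and Ndufs4. The others are Atp5j2, Atp5f1 and Atp5sl. Complex I also gave 32 of the 70 windows, and 21.9% of its windows held the letters. The share was close to this in complex V, at 3 of 16 windows (18.8%, with Atp5sl counted by its symbol). In complex IV it was 0 of 13. The 10 members with the letters had a median log2 difference of 0.07, and the 58 compared members whose window lacked the letters -0.04. The 3 members of complex I with the highest differences, Ndufc1, Ndufs6 and Ndufs7, are among them, but so is Ndufb8 at -0.15, and with 10 genes from 2 libraries this is a description of these genes. The windows of Cox7a2l, Cox5a, Cox6b2 and Cox7a1 held none of the 4 motifs.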

How the data were processed

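RNA was isolated with RNeasy columns and libraries were made with a stranded mRNA kit. The authors mapped reads to mm9 and deposited FPKM with 95% FPKM intervals, per RefSeq transcript for the Rcor2fl/fl library (27641 rows) and per gene for the Rcor2cko library (21896 rows). The submitters' processing notes name TopHat 1.3.3 and Cufflinks 1.2.0, whereas the methods name a later TopHat release and Cuffdiff. E15.5 was not analysed here, and the values of some members are not reported here.

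Transcript rows were summed per gene, members taken by symbol, and genes reaching 1 FPKM in either library compared on the log2(FPKM + 0.1) scale, with 1.5-fold as the call. For genes with several transcript rows, the widths of the rows' 95% FPKM intervals were combined as the root of their summed squares. No further scaling was applied. Multiplying FPKM by the scaling total and an effective length (transcript length minus a fitted offset) returned whole fragments where a gene had 1 transcript and 400 nt or more. Within a tolerance of 0.1, 98.7% and 99.4% of the values of up to 100 fragments were whole below 1000 nt, and 99.3% and 99.4% at 1000 nt or more (Rcor2fl/fl and Rcor2cko library). From these, 95% exact intervals of the ratio were computed; they cover counting error only. The steps were tested on simulated data.

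Named genes were those past 1.5-fold, the 2 highest and 2 lowest differences of each complex, the 5 most abundant members, isoform sets, members under 1 FPKM, X-linked members and catalytic core subunits; others were chosen after their values were seen. Members and lists were chosen with earlier results of these data known. Positions are from GENCODE vM1 on NCBIM37 (mm9), where 86 of 87 members were found once, and promoters from RefSeq. Python 3.11.15, numpy 2.4.6, pandas 2.3.3, scipy 1.17.1, matplotlib 3.10.9 and blastn 2.17.0 were used. The alternatives tried were 15 planned ones (pseudocount, scaling, filter, fold, intervals, transcript rows and subsets of members) and 1 chosen after seeing the data (without members with near copies).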

Additional observations from a re-analysis of the deposited data

How the results depend on the processing

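No paired analysis was possible because each genotype had a single library, and for the same reason no library could be left out. The count of members past 1.5-fold, 1 higher and 1 lower, rests on low genes. No member was more than 1.5-fold lower (count 0) with a pseudocount of 1, where Cox7a1 was at -0.38, nor with a filter of 5 FPKM in either library, 1 FPKM in both libraries, a fold above 2, non-overlapping 95% FPKM intervals, or members of at least 500 nt. No member was more than 1.5-fold higher (count 0) with the filter of 5 FPKM, that of 1 FPKM in both libraries, or non-overlapping intervals. With a fold threshold below 1.5-fold, 3 members were higher (Cox6b2, Ndufc1 and Cox7a2l). With the highest row per gene 2 were, since the 4 transcripts of Ndufs1 in the Rcor2fl/fl values were then cut to 1. The share of all genes called was not computed for either setting. Whether these counts lie above or below that of all genes was therefore not tested. The median of complex IV was 0 with no filter, which adds genes listed at 0 in both libraries. Members of at least 500 nt held 1.87% and 1.85% of the summed FPKM. Without members with near copies 27 of 51 were lower, because fewer genes entered. The members' median changed sign under the 3 scalings but moved by less than 0.1 on the log2 scale. Only the 3 scalings and, for genes with several transcript rows, the highest row per gene could change the sign of a single member. Under these the 19 log2 differences of single members that were followed kept their sign. Over all alternatives run, Cox6b2 lay between 1.04 (pseudocount 1) and 2.34 (highest row per gene) and Ndufc1 between 0.38 and 0.42. Cox7a2l lay between 0.37 and 0.41, Cox5a between -0.27 and -0.22 and Cyc1 between -0.22 and -0.19. Depth limits members with few fragments: below 2 FPKM the intervals span most of the differences shown.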
